A study of Mus musculus with 9 samples.

Results

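Glycolysis and the hypoxia response were described here through 36 named genes, chosen by symbol from textbook pathway membership, among the 55401 genes listed for each library. The set held 2 glucose transporters, 17 glycolytic enzymes from the hexokinases to the lactate dehydrogenases, 3 regulatory kinases of the pathway, 3 subunits of the hypoxia-inducible factors, 3 proteins of oxygen sensing and 8 further hypoxia targets. All 36 symbols were found, in 37 rows, because Aldoa is annotated under 2 identifiers. After a filter on low values 33 symbols could be tested. Ldhb, Epas1 and P4ha2 lay close to 0 in every library and were not tested.

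Glycolysis splits glucose into pyruvate in the cytosol, and lactate dehydrogenase then restores the oxidised cofactor when pyruvate is not burned in mitochondria. Under normal oxygen the prolyl hydroxylases of the Egln family mark HIF-1α, the product of Hif1a, for degradation by the ligase that contains Vhl. When oxygen falls, HIF-1α pairs with the product of Arnt and binds a short DNA element upstream of many glycolytic genes and of targets such as Vegfa. Myeloid leukemia cells and granulocyte precursors are known for heavy use of glycolysis.

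The 9 libraries came from H9M cells, a murine model of acute myeloid leukemia made by retroviral expression of Hoxa9 and Meis1 in lineage-negative bone marrow of C57BL/6-Ly5.1 mice. In all groups each clone carried a lentiviral color code (BC-D). The color-coded mix had been transplanted with helper bone marrow into lethally irradiated C57Bl6/J mice, and CD45.1+ cKit+ CD11b dim or negative cells of single color codes were sorted from spleen. The pre-malignant group was drawn from mouse #15, sacrificed 4 weeks after transplantation, and its color codes were 33BC-D, 38BC-D, 43BC-D. For de novo expanded samples these codes were sorted again at the leukemic endpoint, with 38BC-D out of mouse #13, 43BC-D out of mouse #14 and 33BC-D out of mouse #17. The stably expanded group was a single clone, 34BC-D, taken from mice #13, #14 and #17. Each group had 3 libraries. All pre-malignant libraries shared 1 mouse, so that mouse and stage cannot be told apart there, and all stably expanded libraries shared 1 clone. The columns of the tables could be linked to a group but not to a clone or mouse, and libraries are therefore numbered 1 to 3 within a group without any order.

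Each library held between 10379739 and 15551196 reads on genes. Levels are given as CPM, the counts of a gene scaled to a common total of reads on genes. A count of 0 allows up to 3 reads, which are worth at most 0.289 CPM in any library. Kit stood at 142 to 287 CPM and Itgam, which encodes CD11b, at 27.8 to 85.7 CPM, so that the genes of the sort were detected in all 9 libraries. The pre-malignant libraries had 27896 to 30548 genes with a read, the de novo expanded ones 23537 to 27989 and the stably expanded ones 21618 to 27067. Reads on olfactory and vomeronasal receptor genes, which blood cells are not known to use, took 0.0083 to 0.0186% of pre-malignant reads, 0.0038 to 0.0121% of de novo expanded reads and 0.0022 to 0.0081% of stably expanded reads. De novo expanded library 3 stood apart from the other libraries of its group, for example in Mpo, the myeloperoxidase of primary granules, with 15796 CPM against 1637 and 2658 CPM. Vcam1 differed more, with 167 CPM against 1.17 and 6.75 CPM. Results that rest on it are given with and without it. In bulk samples, fewer cells of a type and less RNA per cell cannot be told apart.

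The core of the hypoxia element was searched upstream of the genes, because its letters are what many of these genes are known to share. RefSeq promoters on GRCm38.p6 (250 bases before to 50 bases after the start) existed for 32 of the 36 symbols, without Bnip3l, Ndrg1, Epas1 and Slc2a3. The words ACGTG and GCGTG were counted on both strands, and a palindrome such as CACGTG counts on each. At least 1 match lay in 25 of the 32 promoters (78.1%), beside 43.8% of all 27025 promoters and 63.9% of the 9105 promoters of tested genes. Ldha had the most matches of all members, 5 of them in the 250 bases upstream. Among the 8 members that passed the test in the stably expanded clone (given further down), Ldha, Eno1, Pfkfb3, Pfkfb4 and Egln3 held a match in the 300 bases, and Gpi1, Pkm and Vegfa did not (62.5%). The upstream bases of a fermentative enzyme, of a glycolytic enzyme and of an oxygen sensor are shown 5′ to 3′ on the gene's strand, with the matches in capitals. They lie at chr7:46845554-46845803 on the plus strand for Ldha, chr4:150236458-150236707 on the plus strand for Eno1 and chr12:54203875-54204124 on the minus strand for Egln3.
Ldha: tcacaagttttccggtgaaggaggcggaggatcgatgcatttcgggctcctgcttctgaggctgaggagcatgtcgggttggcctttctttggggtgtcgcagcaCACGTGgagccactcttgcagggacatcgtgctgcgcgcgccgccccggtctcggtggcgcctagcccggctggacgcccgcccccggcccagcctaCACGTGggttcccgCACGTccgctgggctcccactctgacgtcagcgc
Eno1: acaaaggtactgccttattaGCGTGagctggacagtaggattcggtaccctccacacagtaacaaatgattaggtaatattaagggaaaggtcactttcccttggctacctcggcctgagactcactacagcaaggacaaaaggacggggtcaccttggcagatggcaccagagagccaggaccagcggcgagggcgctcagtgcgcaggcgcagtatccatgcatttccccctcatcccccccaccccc
Egln3: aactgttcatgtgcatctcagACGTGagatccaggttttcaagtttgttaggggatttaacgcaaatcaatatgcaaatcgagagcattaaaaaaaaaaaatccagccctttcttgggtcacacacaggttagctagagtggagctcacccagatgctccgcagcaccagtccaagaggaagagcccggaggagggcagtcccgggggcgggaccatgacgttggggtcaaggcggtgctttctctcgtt
In Ldha a CACGTG palindrome stands near the middle of the window, and another lies close to the start together with a further CACGT, whereas Eno1 and Egln3 carry their single upstream match at the distal end. A match is a description of letters and not of a bound site.

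Levels per length set the isoforms in order. The length used was the deposited one of each gene, which need not be that of the transcripts in these cells. Averaged over the 9 libraries, Hk3 reached 185 CPM per kb of exon, against 31.7 for Hk2 and 21.2 for Hk1, so that hexokinase 3, the form typical of myeloid cells, had the highest level of the enzymes that trap glucose in the cell. Pkm (141), Aldoa (135) and Gpi1 (116 CPM per kb) followed, then Ldha (71.5), Gapdh (46.6) and Tpi1 (45.4 CPM per kb). Among the phosphofructokinases, Pfkl (13.0) and Pfkp (9.18 CPM per kb) exceeded Pfkm (3.60 CPM per kb). The order of Pfkl and Pfkp rests on their lengths of 6675 and 13401 bases. Before division by length, Pfkp (123 CPM) exceeded Pfkl (86.7 CPM). Aldoc, the brain-type aldolase, averaged 0.437 CPM per kb and Ldhb 0.0677 CPM per kb. The lactate dehydrogenase RNA was almost wholly Ldha, with Ldhb at 0.455 CPM in pre-malignant library 1, at 0.501 CPM in de novo expanded library 1 and at 0 reads in the other 7 libraries, which allows up to 0.289 CPM. Slc2a1 and Slc2a3, the glucose transporters GLUT1 and GLUT3, averaged 6.04 and 3.94 CPM per kb. Several of these enzymes have processed near-copies in the mouse genome, and reads shared with such copies may have been lost or split in counting. The second Aldoa row, ENSMUSG00000114515.2, directly upstream of the main one, stayed at or below 1.93 CPM.

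**Figure D1:**
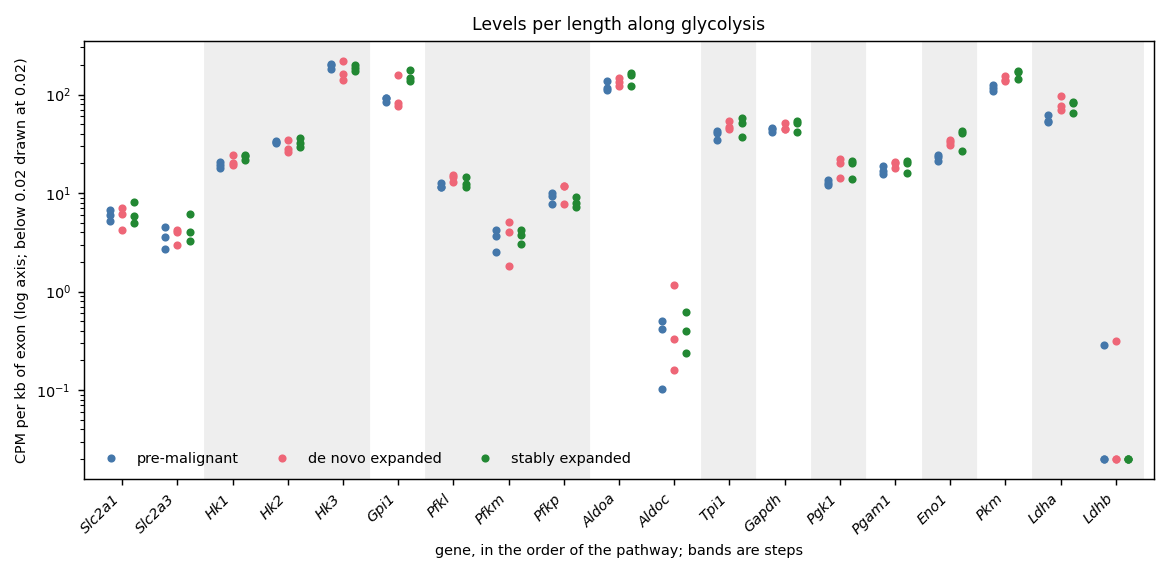
CPM per kb of exon, by the deposited length of each gene, on a log axis for the transporters and enzymes in pathway order, with 1 point per library and colors for the 3 groups. Hk3, Pkm, Aldoa and Gpi1 lie highest per length, and Ldhb lies at the floor in 7 of 9 libraries.

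The first comparison set de novo expanded clones against the pre-malignant clones. No member passed the test, but the glycolytic enzymes lay mostly on the higher side. Of the 34 rows tested, 24 had a higher mean (51% of all 14195 genes did) and 10 a lower one, with a median log2 fold change of 0.14 beside 0.01 for all genes. Limma with Benjamini-Hochberg adjustment called 0 genes at adjusted p under 0.05 and at least 2-fold (0%), with 1597 genes at unadjusted p under 0.05. EdgeR called 0 genes on the same filter. DESeq2, run without the filter on low values over 41164 genes, called 42, none of them a member. At unadjusted p under 0.05 there were 9 members higher, beside 5.99% of all genes, and 1 lower, beside 5.26%. Their groups did not overlap either, which held for 10.6% of all genes on the higher and 8.5% on the lower side.

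Eno1, the enolase of the lower pathway (chr4:150236721-150248879, GRCm38), gave the smallest p of the set. It stood at 114, 129.7 and 125 CPM in the pre-malignant libraries and at 185, 167 and 179 CPM in the de novo expanded libraries. All 3 de novo expanded values lay above all pre-malignant ones, and the log2 fold change was 0.55 ± 0.10 (SE, n = 3 per group; limma adjusted p = 0.32). Ldha, which turns pyruvate into lactate, measured 176, 178 and 207 CPM in pre-malignant and 319, 254 and 233 CPM in de novo expanded libraries. The groups did not overlap, with a log2 fold change of 0.53 ± 0.13 (limma adjusted p = 0.36). Pgk1, the first ATP-producing enzyme of glycolysis, measured 30.2, 27.0 and 28.6 CPM against 50.2, 45.4 and 32.3 CPM. De novo expanded library 3 was the lowest of its group for Pgk1 but still above every pre-malignant library, and the log2 fold change was 0.57 ± 0.18 (limma adjusted p = 0.384).

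Pkm, the pyruvate kinase, measured 539.5, 579.6 and 626 CPM against 702, 680.5 and 779 CPM, and its log2 fold change was 0.33 ± 0.10. Tpi1, the triose phosphate isomerase, measured 95.9, 111 and 117 CPM against 147, 128 and 123 CPM (0.31 ± 0.12). Pfkl, the liver-type phosphofructokinase, measured 76.6, 76.8 and 83.7 CPM against 102, 97.6 and 87.1 CPM (0.29 ± 0.10). The groups of these enzymes stood apart by narrow margins, at limma adjusted p of 0.384 to 0.417. Of the 17 glycolytic enzyme rows tested, which include the second Aldoa row and leave out Ldhb, 15 had a higher mean (median log2 fold change 0.22), and Hk2 and Hk3 had a lower one. Outside the enzymes, Egln1, the main prolyl hydroxylase that reads oxygen, stood at 55.4, 72.3 and 71.5 CPM in pre-malignant and 89.7, 85.7 and 90.5 CPM in de novo expanded libraries (log2 fold change 0.44 ± 0.13, limma adjusted p = 0.381). Bnip3, a mitophagy receptor, was low throughout and measured 3.95, 3.63 and 3.99 CPM against 7.34, 7.01 and 4.44 CPM (0.67 ± 0.28, limma adjusted p = 0.432). Ankrd37, a small ankyrin-repeat target of HIF, measured 0.986, 0.685 and 1.15 CPM against 2.09, 2.64 and 1.57 CPM (1.11 ± 0.41, limma adjusted p = 0.414). Kdm3a, an oxygen-dependent histone demethylase, was the member on the lower side. It did not pass either, with 87.9, 87.4 and 84.2 CPM against 62.8, 79.0 and 68.1 CPM (log2 fold change -0.30 ± 0.11, limma adjusted p = 0.422).

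The second comparison set the stably expanded clone 34BC-D against the pre-malignant clones. Here 8 members rose at adjusted p under 0.05 and none fell, while 606 of 13968 genes rose (4.34%) and 504 fell (3.61%). In several alternative fits members fell as well (given further down). The 8 were the enzymes Gpi1, Eno1, Pkm and Ldha, the kinases Pfkfb3 and Pfkfb4, the oxygen sensor Egln3 and the growth factor Vegfa. Of 34 rows, 27 had a higher mean (50.5% of all genes did), with a median log2 fold change of 0.27 beside 0.00 for all genes. Vegfa alone among the members was called with a rise of at least 2-fold, as were 168 of all genes (1.2%), or 384 genes (2.75%) in either direction. At unadjusted p under 0.05 there were 13 members higher and 3 lower, beside 13.2% and 12.3% of all genes. The normalized counts of the 2 groups did not overlap for 13 members on the higher side, beside 16.1% of all genes, and for 3 on the lower side, beside 14.6%. Egln1 was among the 13, but in CPM its groups overlapped. Its lowest stably expanded value was 71.0 CPM and its highest pre-malignant value 72.3 CPM.

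Gpi1, the glucose-6-phosphate isomerase (chr7:34201330-34230336), had the smallest p. It measured 589, 596 and 541 CPM in pre-malignant and 1149.8, 877 and 939 CPM in stably expanded libraries. The groups stood well apart, and the log2 fold change was 0.78 ± 0.11 (limma adjusted p = 0.00536). Pkm (chr9:59656368-59679375) rose from 539.5, 579.6 and 626 CPM to 867, 854 and 722 CPM, with a log2 fold change of 0.49 ± 0.10 (limma adjusted p = 0.0158). Eno1 reached 227, 218 and 143 CPM, and stably expanded library 3, though lowest, still exceeded the pre-malignant maximum of 129.7 CPM (log2 fold change 0.65 ± 0.15, limma adjusted p = 0.0288). Ldha (chr7:46841475-46855627) reached 269, 281 and 215 CPM, again with library 3 lowest, at a log2 fold change of 0.45 ± 0.11 (limma adjusted p = 0.0368). Pgk1 followed the same order of libraries at 45.5, 47.5 and 30.8 CPM and did not pass (0.51 ± 0.17, limma adjusted p = 0.0837).

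The remaining enzymes differed less from the pre-malignant level. Hk1, the housekeeping hexokinase, measured 177, 152 and 163 CPM in pre-malignant and 206, 204 and 185 CPM in stably expanded libraries, without overlap (0.28 ± 0.10, limma adjusted p = 0.0937). Hk3, the highest per length, measured 758, 731 and 662 CPM against 741, 635 and 682 CPM, with overlapping ranges. Gapdh, often taken as a constant reference, had a log2 fold change of 0.16 with a 95% interval from -0.08 to 0.39. For Hk2 the log2 fold change was -0.01 (-0.22 to 0.20), for Hk3 -0.06 (-0.28 to 0.16) and for Pfkp -0.16 (-0.42 to 0.10). For the transporter Slc2a1 it was 0.06 (-0.36 to 0.48) and for Slc2a3 0.30 (-0.23 to 0.84). Neither the gates of glucose entry nor these hexokinases passed the test in any of the 3 comparisons. All 17 glycolytic enzymes together took 0.339 to 0.351% of the reads of pre-malignant libraries, 0.358 to 0.440% for the de novo expanded clones and 0.397 to 0.477% for 34BC-D. Without Gpi1 and Hk3 these shares were 0.204 to 0.231%, 0.246 to 0.270% and 0.235 to 0.292%. All leukemic libraries lay above the pre-malignant ones in both sums.

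**Figure D2:**
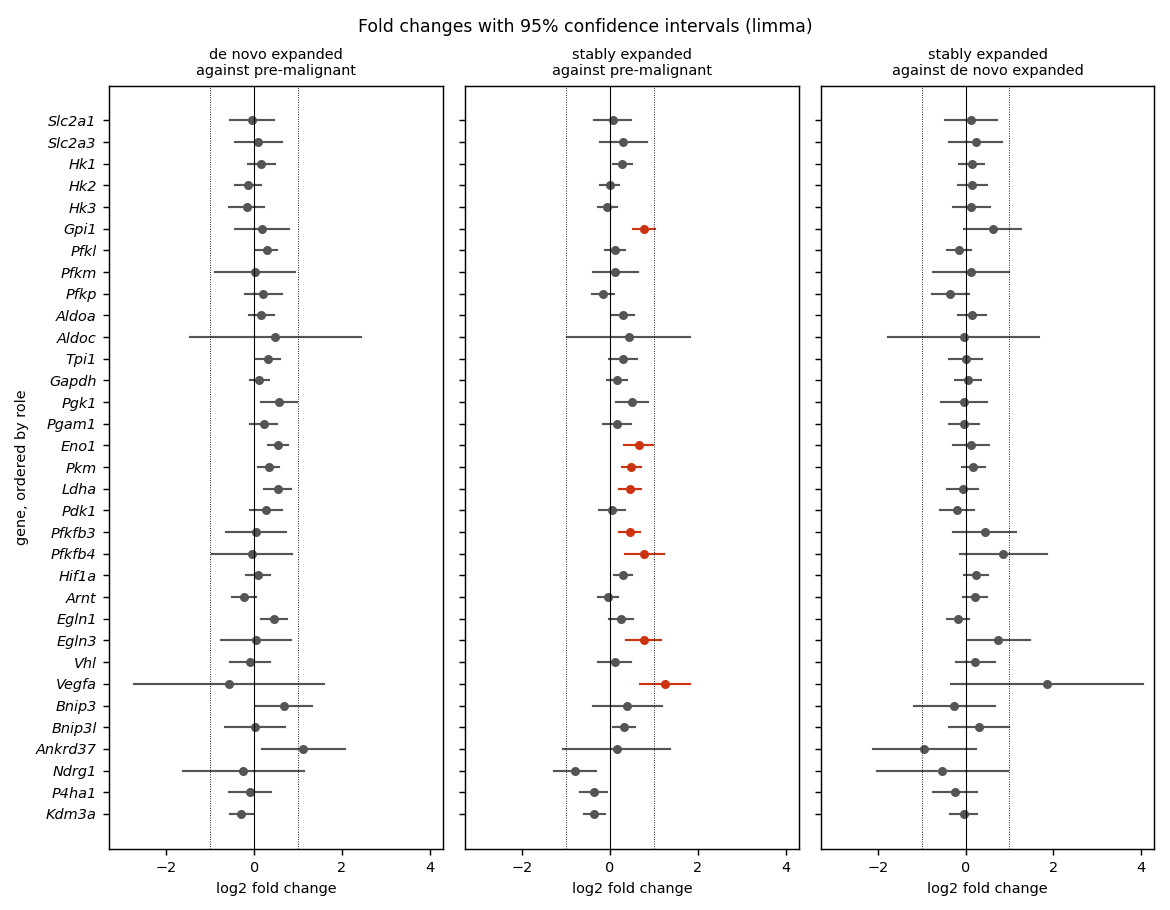
Log2 fold change (points) with 95% confidence interval (lines) for 33 genes in the 3 comparisons, with red for adjusted p under 0.05 and dotted lines at 2-fold. All 8 red points are in the comparison of stably expanded with pre-malignant libraries, all on the higher side.

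The regulatory kinases Pfkfb3 and Pfkfb4 make fructose 2,6-bisphosphate, the strongest activator of phosphofructokinase. Pfkfb3 (chr2:11471433-11554077) measured 108, 112 and 103 CPM in pre-malignant and 159, 129.6 and 153 CPM in stably expanded libraries (log2 fold change 0.45 ± 0.11, limma adjusted p = 0.0325). Pfkfb4 (chr9:108991778-109032228) measured 22.9, 22.5 and 19.7 CPM against 51.1, 35.9 and 28.1 CPM (0.78 ± 0.20, limma adjusted p = 0.0389). Every stably expanded library exceeded every pre-malignant one for both genes. Pdk1, which holds pyruvate back from mitochondria, had a log2 fold change of 0.04 (95% interval -0.25 to 0.34).

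Among the sensors, Egln3 (chr12:54178981-54203860), a prolyl hydroxylase that is itself a HIF target, measured 17.1, 26.7 and 17.6 CPM in pre-malignant and 35.7, 35.2 and 31.5 CPM in stably expanded libraries. The stably expanded values were tightly grouped and lay above the others, with a log2 fold change of 0.77 ± 0.18 (limma adjusted p = 0.0282). Hif1a itself stood at 86.1, 96.4 and 85.5 CPM against 108, 109 and 111 CPM, without overlap but short of the threshold (0.30 ± 0.09, limma adjusted p = 0.0771). Arnt, its partner, had a log2 fold change of -0.04 (95% interval -0.27 to 0.19) and Vhl one of 0.10 (-0.27 to 0.48). Epas1, which encodes HIF-2α, was at or below 0.891 CPM in all 9 libraries.

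Vegfa (chr17:46016993-46032369), the main angiogenic growth factor induced by low oxygen, was the member with the largest rise. It measured 50.2, 47.7 and 29.0 CPM in pre-malignant and 133, 67.8 and 106 CPM in stably expanded libraries, at a log2 fold change of 1.26 ± 0.26 (limma adjusted p = 0.0173). Ndrg1, a stress-responsive gene also induced by hypoxia, went the other way without passing. Its values were 52.4, 53.4 and 53.2 CPM against 19.5, 39.2 and 36.8 CPM, with a log2 fold change of -0.80 ± 0.22 (limma adjusted p = 0.0514). The pre-malignant values agreed within 1.02-fold and all lay above the stably expanded ones. P4ha1, a collagen prolyl hydroxylase subunit, measured 30.4, 32.2 and 36.7 CPM against 27.9, 25.9 and 22.9 CPM (-0.37 ± 0.14, limma adjusted p = 0.128). Kdm3a stood at 67.7, 75.0 and 60.4 CPM in the stably expanded libraries (-0.35 ± 0.10, limma adjusted p = 0.0624). Bnip3l, the relative of Bnip3, measured 38.9, 34.8 and 36.8 CPM against 45.7, 44.7 and 46.5 CPM, again without overlap (0.31 ± 0.12, limma adjusted p = 0.12). The hypoxia targets outside glycolysis thus held 4 genes with a higher and 3 with a lower mean, and their median log2 fold change was 0.15.

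**Figure D3:**
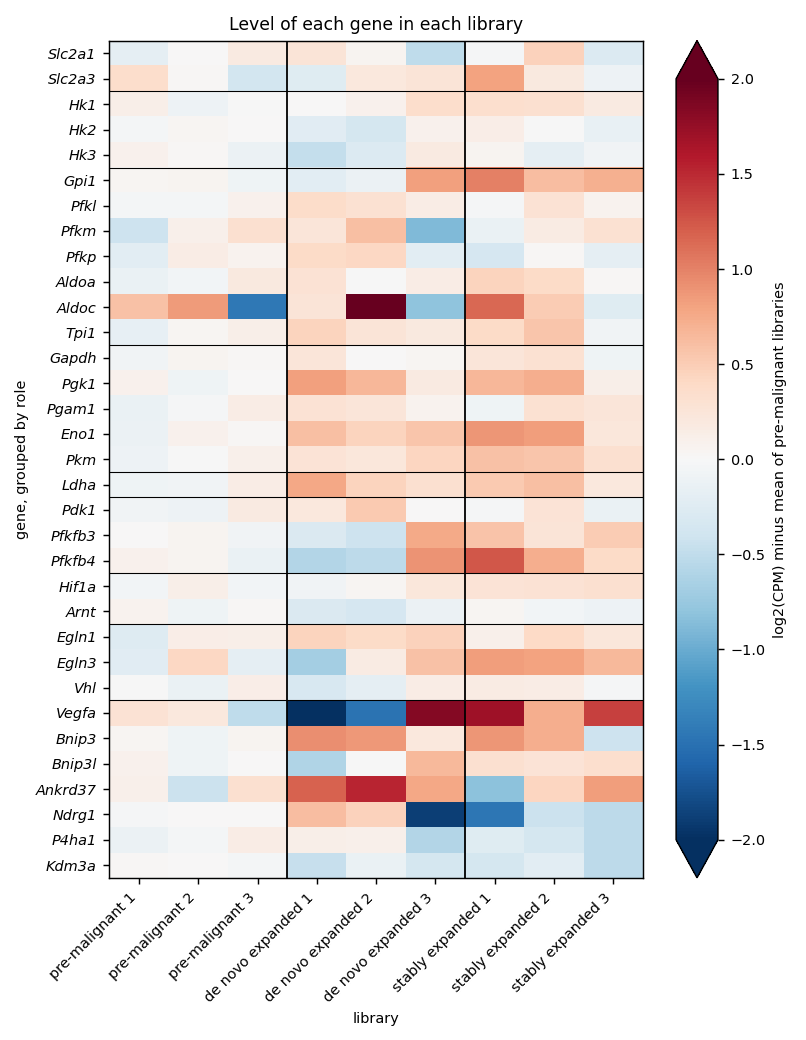
Level of each tested gene in each of the 9 libraries as log2 CPM minus the mean of the 3 pre-malignant libraries, cut at 2 on either side. The rows of Gpi1, Pfkfb3, Pfkfb4 and Vegfa are blue in de novo expanded libraries 1 and 2 and red in library 3 and in all stably expanded libraries, whereas Eno1, Pkm, Ldha and Pgk1 are red in all 6 leukemic libraries.

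Limits of this comparison lie in the number of libraries and in what else moved. Gpi1 stayed at limma adjusted p under 0.05 in all 6 fits that left out 1 library. The members that rose numbered 1 without stably expanded library 1, 4 without library 2 and 9 without library 3, and 2, 3 and 3 without pre-malignant library 1, 2 and 3. With members that fell included, 5 passed without stably expanded library 2 and 10 without library 3. By DESeq2, with a pseudocount of 5, after median centring, without a filter and with a mean of at least 50, 9 passed and 8 of them rose. After quantile normalization 8 passed and 6 of them rose. The others that passed in these fits fell. A single fit of all 9 libraries shares 1 estimate of spread with the variable de novo expanded group. It also used reads scaled to library totals and a filter over all 9 libraries, and the part of each change was not tested. In that fit none of the 8 passed, with limma adjusted p from 0.0807 for Pkm to 0.43 for Vegfa. Their log2 fold changes were close to those above, for example 0.77 for Gpi1, 0.48 for Pkm and 1.26 for Vegfa. Transcripts of late neutrophils (Ngp, Camp, Ltf, S100a8, S100a9, Mmp8 and Cxcr2) summed to 179 to 219 CPM in pre-malignant libraries, to 147 to 559 CPM in the de novo expanded clones and to 525 to 4249.6 CPM in 34BC-D, where 4 of these 7 were called higher than in the pre-malignant clones. A higher mean in 34BC-D was seen for 6 of the 7. Mmp8 had a lower one, at 0.261, 0.480 and 1.35 CPM against 1.44, 1.16 and 1.22 CPM. Erythroid genes summed to 25.5 to 56.8, 4.11 to 21.2 and 5.01 to 35.9 CPM, with 0 of 8 tested called. Only 1 of these 8 had a higher mean in 34BC-D than in pre-malignant libraries. B cell genes summed to 15.0 to 20.8, 7.52 to 12.7 and 11.1 to 19.3 CPM, and 3 of 6 (Pax5, Ms4a1 and Ebf1) were called lower in 34BC-D, with Pax5 at 4.70, 3.08 and 1.76 CPM in pre-malignant and 0.196, 0.617 and 0.193 CPM in stably expanded libraries. Of the 6, 1 had a higher mean in 34BC-D without being called. This was Cd79b, at 6.91, 10.1 and 4.66 CPM in pre-malignant and 14.6, 9.73 and 17.8 CPM in stably expanded libraries. Macrophage genes summed to 217 to 287, 115 to 256 and 208 to 259 CPM, and of 4 tested only Csf1r was called, lower at 29.1, 56.9 and 32.9 CPM against 97.6, 125 and 160 CPM. Of these 4 genes, 2 had a higher mean in 34BC-D, among them Vcam1 at 141, 106 and 77.4 CPM against 100, 12.4 and 13.6 CPM. T cell and platelet genes summed to at most 2.40 and 3.11 CPM, with Ppbp and Gp1bb at 0 throughout. With the share of olfactory and vomeronasal reads as a covariate none of the 8 passed, at limma adjusted p from 0.305 to 0.746 and log2 fold changes from 0.27 for Ldha to 1.44 for Vegfa. The part of these transcripts in the result was not tested.

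**Figure D4:**
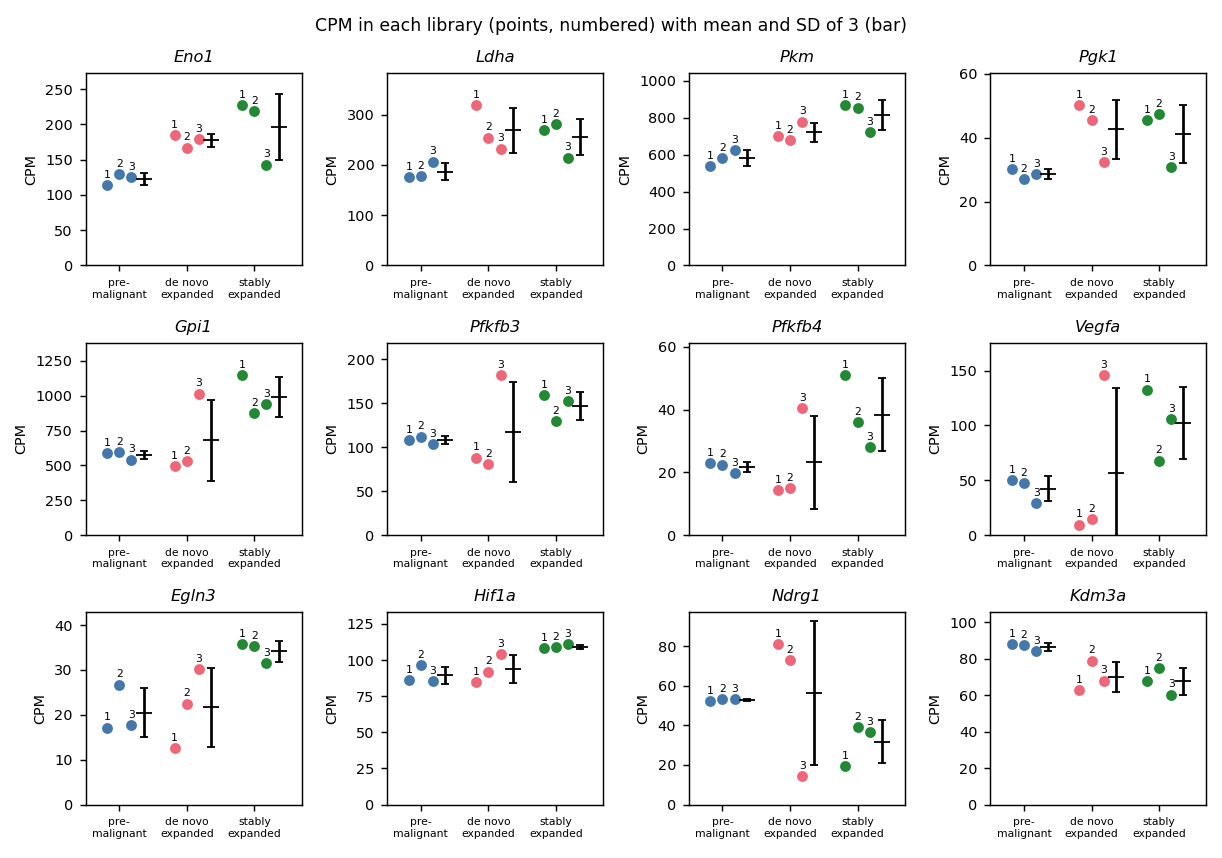
CPM of 12 members in each library (numbered points) with the mean and SD of the 3 libraries of a group (bars; the lower end for Vegfa in the de novo expanded group falls below 0 and is cut at the axis). Eno1, Ldha, Pkm and Pgk1 lie above all pre-malignant libraries in all 6 leukemic libraries, and de novo expanded library 3 departs from libraries 1 and 2 for Gpi1, Pfkfb3, Pfkfb4, Vegfa and Ndrg1.

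Across both leukemic groups, 4 members had all 6 libraries above all 3 pre-malignant ones, namely Eno1, Ldha, Pkm and Pgk1. This held for 684 of 13774 genes (4.97%). For Pgk1 the margin was narrow, with 30.8 CPM in the lowest leukemic library and 30.2 CPM in the highest pre-malignant one. For Ldha the nearest values were 215 and 207 CPM, for Pkm 680.5 and 626 CPM, and for Eno1 143 and 129.7 CPM. In the opposite direction Kdm3a was the single member, beside 5.87% of all genes, with the nearest values at 79.0 and 84.2 CPM. Both comparisons share the pre-malignant libraries, so that a low value there enters both.

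The third comparison set the stably expanded clone against the de novo expanded clones, taken at the same endpoint. No member passed, and 1 gene of 13758 was called (0.00727%). Of 34 rows 20 had a higher mean (49.6% of all genes did) and 14 a lower one, with a median log2 fold change of 0.13 beside 0.00 for all genes. Limma gave an unadjusted p under 0.05 for 1 member, Egln3, beside 2.72% of all genes on the higher side. EdgeR gave 0 and DESeq2, run without the filter on low values, 2 such members, and neither called any. Egln3 measured 12.5, 22.5 and 30.1 CPM in de novo expanded libraries, all below the stably expanded minimum of 31.5 CPM (log2 fold change 0.74 ± 0.31, limma adjusted p = 0.891). Hif1a and Arnt were the other members whose groups did not overlap, beside 4.66% of all genes on the higher side. For the enzymes Eno1, Ldha, Pgk1 and Tpi1 the differences were 0.12, -0.07, -0.04 and 0.00, with 95% intervals that reached from -0.56 to 0.54.

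For several members the de novo expanded libraries split, with library 3 on one side. Vegfa in library 3 reached 146 CPM, against 9.51 and 14.7 CPM in the other two, a range of 15.4-fold within 1 group where the pre-malignant and stably expanded libraries spanned 1.73-fold and 1.96-fold. Gpi1 measured 496, 529 and 1015 CPM, Pfkfb3 88.2, 80.7 and 183 CPM and Pfkfb4 14.4, 15.0 and 40.4 CPM, with library 3 the highest each time. In these genes library 3 lay within or above the stably expanded range. Ndrg1 showed the mirror image at 81.0, 73.2 and 14.4 CPM, below every other library of the series. Bnip3l had the order of Vegfa, with 24.2, 36.4 and 57.5 CPM. Over the same 3 libraries the genes that were higher in all leukemic libraries spanned 1.11-fold for Eno1, 1.15-fold for Pkm, 1.37-fold for Ldha and 1.55-fold for Pgk1. Library 3 was the lowest of them for Ldha and Pgk1, the highest for Pkm and in between for Eno1.

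Without de novo expanded library 3, which leaves 2 libraries in that group, the calls changed. Against the pre-malignant clones Vegfa then fell, beside 2.13% of all genes, at a log2 fold change of -1.78 ± 0.26 (limma adjusted p = 0.00567), where all libraries gave -0.57 ± 0.93 (limma adjusted p = 0.855). Eno1 (0.53), Ldha (0.62), Pgk1 (0.75) and Ndrg1 (0.54) were higher at limma adjusted p of 0.0173 to 0.0286, beside 2.25% of all genes on the higher side. Against the stably expanded clone, Vegfa (3.06), Pfkfb4 (1.35), Egln3 (1.03), Gpi1 (0.95) and Pfkfb3 (0.81) were then higher in the stably expanded libraries and Ndrg1 (-1.32) and Pfkp (-0.54) lower, at limma adjusted p of 0.000987 to 0.0325, beside 4.66% of genes higher and 2.06% lower. The library was set aside after its values were seen. With it, library 3 moved together with Mpo (15796 CPM) and with the summed neutrophil genes (559 CPM against 147 and 186 CPM), and their part in these values was not tested.

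**Figure D5:**
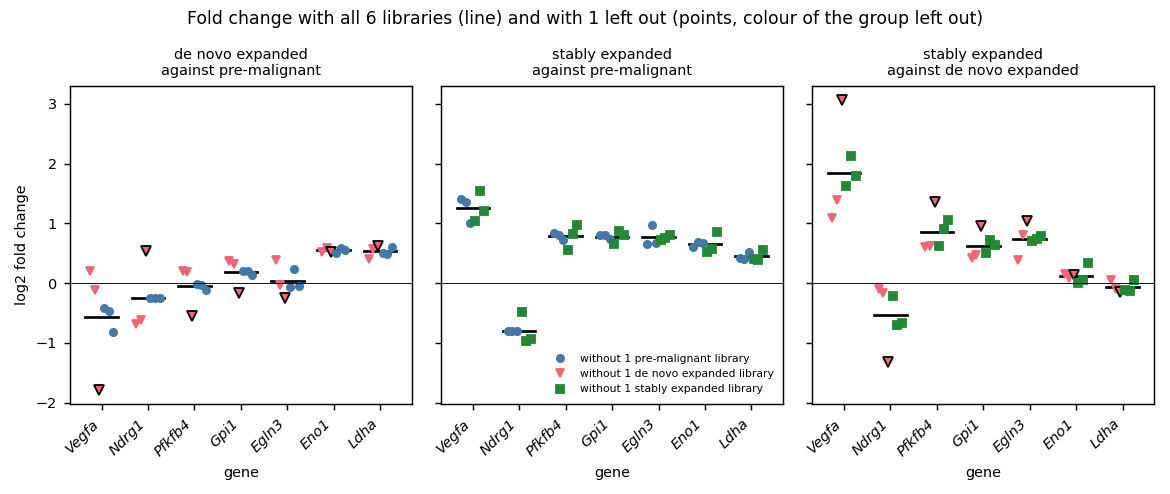
Log2 fold change of 7 members in the 3 comparisons with all 6 libraries (black line) and with 1 library left out (points, colored by the group of the library left out; outlined triangles are de novo expanded library 3). Vegfa moves from -0.57 to -1.78 and from 1.85 to 3.06 without that library, whereas Eno1 and Ldha stay close to their lines.

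The members also differed in how far replicate libraries spread. Over the 34 rows the median coefficient of variation was 8.61% among the pre-malignant, 19.9% among the de novo expanded and 14.1% among the stably expanded libraries. Over all genes tested the corresponding medians were 14.3%, 20.4% and 16.2%. The pre-malignant libraries came from 1 mouse and the leukemic libraries from 3 mice per group.

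Genes that neighbor glycolysis were read from lists of the same pathways. The pentose phosphate pathway, which branches at glucose-6-phosphate to make NADPH and ribose, had all 7 of its tested genes higher in stably expanded than in pre-malignant libraries (median log2 fold change 0.46; 50.5% of all genes had a higher mean), and 4 of them rose, beside 4.34% of all genes. These were Rpia (0.68 ± 0.13), Pgd (0.61 ± 0.12), G6pdx, the first enzyme of the branch (0.46 ± 0.12), and Taldo1 (0.43 ± 0.12), at limma adjusted p of 0.0135 to 0.0468. Rpia and Pgd had the library pattern of Gpi1, with 45.4, 46.1 and 122 CPM and with 251, 252 and 439 CPM in the de novo expanded libraries. Of 10 tested genes of glycogen and gluconeogenesis 3 rose, against the same 4.34%, namely the glycogen synthase Gys1 (0.79 ± 0.15), the glycogen phosphorylase Pygl (0.63 ± 0.15) and Ugp2, which makes UDP-glucose (0.52 ± 0.14). None of 12 tested genes around pyruvate dehydrogenase passed, and Pdk3, an inhibitory kinase of that complex, came nearest (0.42 ± 0.12, limma adjusted p = 0.059).

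The 7 tested further glycolytic enzymes and isoforms had 3 higher and 4 lower means in stably expanded than in pre-malignant libraries (median log2 fold change -0.11). Of these, 2 rose, beside 4.34% of all genes. Adpgk, an ADP-dependent glucokinase, rose from 45.8, 52.5 and 38.5 CPM to 108, 66.1 and 77.6 CPM (0.86 ± 0.18, limma adjusted p = 0.0206). Eno1b rose by 1.14 ± 0.27 (limma adjusted p = 0.0306), but it is a retrotransposed near-copy of Eno1, and reads of one may have been assigned to the other. Of 6 further transporters, 5 had a higher and 1 a lower mean, and 1 rose, against the same 4.34%. This was the lactate exporter Slc16a3, which rose by 1.18 ± 0.21 (limma adjusted p = 0.0103), from 15.6, 15.1 and 14.3 CPM to 41.7, 40.4 and 23.3 CPM. In de novo expanded libraries it stood at 34.6, 31.0 and 24.0 CPM, above all pre-malignant values as well (0.99 ± 0.17, limma adjusted p = 0.32).

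The wider hypoxia response lay mostly on the higher side in stably expanded against pre-malignant libraries. Of 27 further tested hypoxia-responsive genes, 21 had a higher mean (50.5% of all genes did) and 6 a lower one, with a median log2 fold change of 0.28. In this comparison 6 rose (4.34% of all genes did) and 1 fell (3.61% did). The 6 that rose were Zfp395 (0.96), the transferrin receptor Tfrc (0.83), Fam162a (0.72), Ero1l, an oxidase of protein folding (0.68), Anxa1 (0.67) and P4hb, the protein disulfide isomerase (0.36), at limma adjusted p of 0.0075 to 0.0488. Wsb1, a ubiquitin ligase adaptor, fell by 0.41 on the log2 scale (limma adjusted p = 0.0282). Of 13 further regulators of HIF, the coactivator Crebbp was the single one to pass, and it fell by 0.36 (limma adjusted p = 0.0299). None of the genes on these lists passed in the other comparisons. For de novo expanded against pre-malignant clones, the smallest p of each list belonged to Slc16a3, Tfrc (0.72 ± 0.16), Eloc, a subunit of the Vhl ligase (0.55 ± 0.13), Mpc1, the mitochondrial pyruvate carrier (0.63 ± 0.17), Adpgk (0.44 ± 0.14), Ugp2 (0.41 ± 0.18) and Pgls (0.20 ± 0.13), at limma adjusted p of 0.32 to 0.585. For stably against de novo expanded libraries it belonged to Ero1l (0.50 ± 0.13), G6pdx (0.40 ± 0.11), Eno3, the muscle enolase (-0.78 ± 0.29), Cited2, which competes with HIF for its coactivator (0.58 ± 0.22), Gys1 (0.80 ± 0.33), Pdk2 (0.72 ± 0.39) and Slc2a9 (0.44 ± 0.26), all at a limma adjusted p of 0.891.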

How the data were processed

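RNA of sorted cells was made into libraries with the SMARTer Stranded Total RNA-Seq Pico v3 kit and sequenced on an Illumina NextSeq 550. The authors deposited 3 tables, 1 for each pair of groups, with 55401 genes and 6 libraries each. Per the submitters' notes, reads passed Trim Galore 0.6.4, STAR 2.6.1d and featureCounts 1.6.4 on GRCm38.p6, and DESeq2 gave normalized counts, a signal per gene that the authors divided by size factors. The tables also hold the authors' comparisons (base means, fold changes, standard errors, Wald statistics and p-values), which were not used, and gene lengths (another deposited column), which gave CPM per kb. The labels do not say whether counting used strand. Dividing by the value of 1 read gave whole reads, within 0.05, for at least 99.9954% of nonzero values in every library. CPM were computed from these reads.

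Genes whose normalized counts averaged at least 10 over the 6 libraries were tested on log2(normalized count + 1) by limma 3.58.1 with trend (R 4.3.3), two-sided, with Benjamini-Hochberg adjustment over all genes tested, in each table separately. Fold changes are on the log2(value + 1) scale and understate those of low genes. A gene was called at adjusted p under 0.05 and at least 2-fold, and rose or fell at adjusted p under 0.05. Intervals cover 95%. Alternatives were pseudocounts, filters, quantile normalization, median centring, edgeR 4.0.16, DESeq2 1.42.0 on whole reads, 1 fit of 9 libraries, leaving out each library and, chosen after seeing the data, a covariate of olfactory and vomeronasal reads. DESeq2 was run without the filter on low values. The 1 fit used reads scaled to library totals, with the filter taken over all 9 libraries. An exact permutation test of 3 against 3 cannot go below p = 0.1 and was not used. P-values measure the spread between libraries, which for the pre-malignant group come from 1 mouse. Counting limits cover counting error only. The members and lists were chosen with earlier results of these data known. Values in every library were given for members called, or at unadjusted p under 0.05 with groups apart, in any comparison, and for the highest and lowest member. On the other pathway lists, genes called and the gene of smallest p per list and comparison were named, and those at adjusted p under 0.05 were added after their values were seen. Scripts were tested on simulated data. Promoters came from RefSeq on GRCm38.p6.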

Additional observations from a re-analysis of the deposited data

How the results depend on the processing

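No paired analysis was possible because the tables link their columns to groups but not to clones or mice. For de novo expanded against pre-malignant clones, where 0 genes and 0 members were called, 10 members had an unadjusted p under 0.05 and the members' median log2 fold change was 0.14, the called genes were 5 without a filter, 42 by DESeq2, 5 in 1 fit of 9 libraries and 0 to 215 leaving out 1 library, with 0 to 1 called members. The members at unadjusted p under 0.05 were 6 by DESeq2, 3 with the olfactory covariate (chosen after seeing the data) and 5 to 19 leaving out 1 library, and the median was 0.0894 without a filter and 0.0894 with a mean of at least 50, 0.0741 after quantile normalization, 0.11 after median centring and 0.11 to 0.22 leaving out 1 library. For stably expanded against pre-malignant libraries, the 384 called genes became 6 in 1 fit of 9 libraries, 5 with the covariate, 1110 with no fold limit and 205 to 458 leaving out 1 library, and the 1 called member became 0 in 1 fit, 0 with the covariate, 8 with no fold limit and 0 to 1 leaving out 1 library. The 16 members at unadjusted p under 0.05 became 9 in 1 fit and 6 with the covariate, and 13 to 18 leaving out 1 library, and the median of 0.27 became 0.18 with the covariate and 0.21 to 0.27 leaving out 1 library. For stably against de novo expanded libraries, the 1 called gene became 2 without a filter, 29 by DESeq2, 2 in 1 fit, 0 with the covariate and 0 to 511 leaving out 1 library, and the 0 called members 0 to 4. The 1 member at unadjusted p under 0.05 became 4 without a filter, 2 after quantile normalization, 0 by edgeR, 2 by DESeq2, 5 in 1 fit, 0 with the covariate and 0 to 14 leaving out 1 library, and the median of 0.13 became 0.0018 to 0.18 leaving out 1 library. The highest counts in both comparisons with de novo expanded clones came without de novo expanded library 3. DESeq2 was run without the filter on low values, so that tool and filter cannot be told apart in its counts. Of 575 alternative values, for 36 pairs of a member and a comparison in which limma gave an unadjusted p under 0.05 or any alternative an adjusted p under 0.05, 560 kept their direction and their side of the call (adjusted p under 0.05 and at least 2-fold). The 6 that reversed were all uncalled, in de novo expanded against pre-malignant libraries. Ndrg1 (-0.25) became 0.0824 by edgeR, 0.093 by DESeq2 and -0.69 to 0.54 leaving out 1 library, positive without de novo expanded library 3, and Vegfa (-0.57) became 0.43 by edgeR, 0.46 by DESeq2 and -1.78 to 0.20 leaving out 1 library, positive without de novo expanded library 1. Vegfa lost its call against pre-malignant libraries in 4, namely 1 fit of 9 libraries (1.26, limma adjusted p = 0.43), the covariate (1.44, limma adjusted p = 0.372), without stably expanded library 1 (1.04, limma adjusted p = 0.0523) and without pre-malignant library 3 (1.01, limma adjusted p = 0.0503), and the 5 calls gained all came without de novo expanded library 3, for Vegfa against pre-malignant libraries (-1.78) and for Vegfa (3.06), Pfkfb4 (1.35), Egln3 (1.03) and Ndrg1 (-1.32) between the leukemic groups. The 8 members that rose in stably expanded against pre-malignant libraries kept a log2 fold change above 0 in all 128 alternative values and an adjusted p under 0.05 in 82. Where fewer libraries were not the difference, the cause was not tested. With 3 libraries a group, stage, clone and mouse cannot be told apart in stably expanded against pre-malignant libraries. The de novo expanded and pre-malignant groups share their color codes, and stage and mouse cannot be told apart there, while the leukemic groups share their mice and differ in clone.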
